A study of Mus musculus with 18 samples.

Results

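The change between 24 h and 48 h of exit from naive pluripotency was followed in mouse embryonic stem cells (ESCs) that express a constitutively active ezrin. The cells compared were the 3 iEZR_CA libraries at T48 and the 3 iEZR_CA libraries at T24, 6 of the 18 RNA-seq libraries of the study. iEZR_CA is a line of E14 ESCs in which a PiggyBac transposon carries a doxycycline-inducible phosphomimetic ezrin followed by an IRES and mCherry. Doxycycline was given about 16 h before exit, and whether it was kept in the medium afterwards is not given in the sources used here. The cells grew on gelatin in medium with kinase inhibitors (2i) and leukemia inhibitory factor (LIF), and exit was started by a change to N2B27 medium without them. Cells were collected before the change (ESC) and 24 h (T24) or 48 h (T48) after it, and so was wild-type (WT) E14, with 3 libraries in each of the 6 groups. WT cells carry no transgene, so doxycycline, transgene and line cannot be told apart where the lines are compared. The sample titles are plate wells, and the lines lay mostly in different plate columns, so position and line cannot be told apart either. All libraries came from bulk cultures, in which a smaller share of cells with a transcript and less of it in each cell cannot be told apart.

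Naive ESCs correspond to the epiblast before implantation and hold their state through a network of transcription factors that includes Nanog, Esrrb, Klf4 and Tfcp2l1. When the inhibitors are withdrawn, ERK signalling rises, this network is dismantled, and cells pass into a formative state marked by Otx2, Pou3f1 and Fgf5. Ezrin belongs to the ERM proteins, which tie the plasma membrane to the actin cortex, and its phosphomimetic form is held in the open, linking conformation. The within-line comparison asks which transcripts moved in the second day of exit in cells induced to express active ezrin, without the constant differences between the lines.

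The 6 libraries held 15200664 to 26989941 counts on genes at T24 and 17120888 to 26779965 at T48. The median absolute deviation of a gene from its group mean was 0.0328 to 0.0386 on the log2 scale over these libraries, and none stood apart. No replicate pair looked like a library deposited again (chi-square per degree of freedom 1.61 to 2.53 over 6 pairs), and each library was counted on its own. The study describes the libraries of a group as independent biological replicates, while the labels do not say how they were cultured, and the tests measure the spread between these libraries. The general pluripotency markers Pou5f1 and Sall4 were abundant in every library, with means of 10869 and 6195 normalized counts (counts divided by library size factors) at T48. Ezr itself was counted at 21299, 20185 and 20894 at T24 and at 16067, 16393 and 16186 at T48. It therefore fell by 0.36 on the log2 scale, without overlap between the groups, and the exact two-sided permutation test gave p = 0.1, the smallest that 3 against 3 libraries allow. At T48 it was still above the WT mean of 10096. Counts per gene do not separate the transgene from the native gene.

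In all, 5466 of 18469 tested genes (29.6%) were higher at T48 than at T24 and 5549 (30.0%) were lower, at an adjusted p under 0.05 by edgeR's quasi-likelihood test with Benjamini-Hochberg adjustment. This is what "rose" and "fell" mean for single genes from here on. The change was at least 2-fold for 1331 risers (7.21%) and 1342 fallers (7.27%). The 3 T48 libraries lay wholly above the 3 T24 libraries for 5882 genes (31.8%) and wholly below them for 5954 (32.2%). The median log2 fold change of all tested genes was 0.01, and each list below is to be read against that median and these shares. When libraries were scaled by spike-in RNA instead, the median of all genes moved to 0.10, and 4118 genes were higher and 2813 lower. Changes smaller than this shift depend on the scaling, and some larger ones, such as that of Ezr, then no longer passed the test. Spike-ins made up 0.685% to 0.792% of the counts in a T24 library and 0.575% to 0.874% in a T48 library.

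The largest rises were in genes that were nearly silent in ESCs. Among named genes with a mean of at least 50 normalized counts over the 6 libraries and no overlap between the groups, these were Dcn, Tmem54, Cxcl12, Gfra1, Vrtn, Ms4a4d, H19, Car4, Tal2, Ramp2, Pou2f2 and Zfp608, with ESC means of 0 to 7.42 normalized counts and T48 means of 113 to 1899. They encode, among others, secreted and surface proteins (the proteoglycan decorin, the chemokine CXCL12, the GDNF co-receptor GFRA1, the membrane-anchored carbonic anhydrase CAR4) and transcription factors (TAL2, the octamer-binding POU2F2).

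Dcn, on chr10:97479609-97518143 (GRCm38, plus strand), had 0, 3.04 and 0 normalized counts at T24 and 328, 363 and 303 at T48. Only 4 reads in all lay behind the T24 value, and the ratio of the summed reads was 262 with an exact 95% interval of 102 to 963, which covers counting error alone. Vrtn (vertnin) had 35.1, 25.1 and 36.6 at T24 and 1731, 1646 and 1468 at T48, a log2 fold change of 5.69 ± 0.09 (SE). Both genes were thus far apart between the time points in every library. Cxcl12 went from 6.74, 12.2 and 6.57 to 549, 528 and 481, and Car4 from 13.5, 12.9 and 14.1 to 578, 593 and 553. The log2 fold changes were 5.85 for Cxcl12 and 5.41 for Car4. In WT, where 32.8% of all genes rose and 32.9% fell over the same 24 h, 11 of the 12 also rose and Tal2 fell. The change was higher in iEZR_CA than in WT for 11 of the 12, beside 25.3% higher and 20.9% lower among all genes. The exception was Ramp2, for which the difference was -0.76 ± 0.51 and did not pass the test. The 12 were picked by their rise in iEZR_CA, which is part of this difference, so the count cannot be weighed against those shares.

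Tal2, a basic helix-loop-helix factor on chr4:53779705-53788712 (GRCm38, plus strand), had 4.05, 8.36 and 10.3 normalized counts at T24 and 250, 266 and 281 at T48. In WT its mean was 122 at T24 and 86.4 at T48. The log2 fold change was thus 5.03 ± 0.20 in iEZR_CA and -0.43 in WT.

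The largest falls were in Msc, Ly6a, Fbln5, Inhbb, Slc13a5, Mras, Jam2, Lrrc34, Il6ra, Tbx3, Xaf1 and Ano1, with fitted T48 to T24 ratios of 0.0202 to 0.0807. Of these, 10 had already fallen between ESC and T24, a step in which 28.9% of all genes fell and 27.1% rose. Ano1 had risen then, and the ESC-to-T24 change of Inhbb did not pass the test. Ly6a, which encodes the GPI-anchored surface antigen Sca-1, was at 2231, 2298 and 2406 at T24 and at 54.4, 57.7 and 51.6 at T48. Msc, a basic helix-loop-helix repressor, went from 219, 220 and 249 to 3.35, 5.39 and 4.80. The groups were separated by more than an order of magnitude for both genes. Inhbb, the beta B subunit of activin B, went from 631, 715 and 637 to 47.7, 26.9 and 31.2, and Il6ra, the ligand-binding chain of the interleukin 6 receptor, fell by 3.90 on the log2 scale. For all 12 the second change was lower than the first by the test of the second against the first 24 h. Among all genes 24.9% were lower and 21.9% higher. The 12 were picked by their fall in the second step, which is part of this contrast, so the count cannot be weighed against those shares.

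RefSeq promoter windows (GRCm38.p6) were found for 16 of these 24 genes. Of the 6 motifs searched on both strands, the only match in them was an E-box, CACGTG, before Il6ra. This motif was present in 7.15% of all 32851 windows of 300 bases. No window of the 16 genes held the POU octamer (ATGCAAAT), the ESRRB element (TCAAGGTCA), the grainyhead element (AACCGGTT), the cyclic AMP response element (TGACGTCA) or the STAT element (TTCNNNGAA), which were in 1.74%, 0.423%, 0.146%, 1.79% and 8.30% of all windows. The 250 bases before the start sites of Tal2, with the largest difference from WT by the same criteria, and of Il6ra, the gene with the match, are shown with the matched letters in capitals. Tal2 lies at chr4:53779451-53779700 on the plus strand and Il6ra at chr3:89913197-89913446 on the minus strand, written 5′ to 3′ along the gene:
Tal2: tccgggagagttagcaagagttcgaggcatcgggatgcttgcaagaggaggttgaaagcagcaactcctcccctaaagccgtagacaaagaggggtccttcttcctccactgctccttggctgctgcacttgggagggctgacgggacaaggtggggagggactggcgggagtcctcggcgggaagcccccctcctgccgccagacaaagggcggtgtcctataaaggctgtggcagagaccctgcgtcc
Il6ra: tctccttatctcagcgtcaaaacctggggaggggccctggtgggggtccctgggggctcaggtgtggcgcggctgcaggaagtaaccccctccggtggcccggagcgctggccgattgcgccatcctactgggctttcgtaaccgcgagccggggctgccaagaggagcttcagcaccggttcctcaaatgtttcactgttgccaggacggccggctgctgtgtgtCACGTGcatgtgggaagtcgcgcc
The Tal2 stretch holds 11 CpG dinucleotides and the Il6ra stretch 18, beside a median of 6 over all windows. Of all windows, 66.5% held at most as many as Tal2 and 80.3% at most as many as Il6ra.

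Among abundant genes, with a mean of at least 5000 normalized counts, the largest rises were in Pim2, Slc16a3, Lin28a, Peg10, Rian and Lrp2. Pim2, a serine/threonine kinase, rose from 1969, 1928 and 1933 to 18834, 18628 and 18219, a log2 fold change of 3.26 ± 0.03. Slc16a3, the lactate exporter MCT4, rose from 1493, 1377 and 1443 to 12203, 12064 and 11836. In WT, Slc16a3 was already at 10918 at T24 and rose by 0.15 only. Lrp2, the endocytic receptor megalin, rose by 1.41 ± 0.13 from 5464, 6191 and 4823 to 15504, 13581 and 14634. The largest falls were in Esrrb, Zfp42, Jup, Zfp57, Sox2 and Ctnnal1. Jup (plakoglobin) fell by 1.24 and Ctnnal1 (an alpha-catenin relative) by 1.13 on the log2 scale. Ctnnal1 had a fold change of 0.00 in WT.

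Naive pluripotency genes fell in the second day. Of 15 members, 14 fell, 11 of them at least 2-fold, and none rose, with a median log2 fold change of -2.34. In WT all 15 fell over the same 24 h, with a median of -3.16. The change was higher in iEZR_CA than in WT for 10 members and lower for 1, beside 25.3% and 20.9% of all genes. The study displayed the genes of this list for the same samples, so the list is not independent evidence of its direction. Tbx3, a T-box factor of the network, was at 2393, 2490 and 2407 at T24 and at 182, 165 and 189 at T48, a log2 fold change of -3.78 ± 0.05. Prdm14, a repressor of FGF signalling and DNA methylation, fell by 3.61, and Nr5a2 and Tcl1 each by 2.83. Dppa3 (Stella) was the member that did not pass the test, with 229, 199 and 185 at T24 and 175, 184 and 167 at T48.

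Between ESC and T24, 13 of the 15 had fallen and 1 had risen. Zfp42 (Rex1) was at 17924, 17301 and 17888 at T24, beside an ESC mean of 17567 ± 196 (SD, n = 3), and at 4715, 5040 and 5383 at T48. Nr0b1 (Dax1), on the X chromosome, rose from 1271 ± 83.0 (SD, n = 3) in ESCs to 6320, 6359 and 6487 at T24 and came back to 980, 1036 and 1076 at T48. Its second step differed from its first by -4.97 on the log2 scale. Across the list, the second step was the lower for 10 members and the higher for 4, at a background of 24.9% lower and 21.9% higher among all genes.

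Formative genes continued to rise in iEZR_CA. Of 17 members, 15 rose, 11 of them at least 2-fold, and none fell, with a median of 1.16; the first 6 of the list were displayed by the study for these samples. Fgf5, the epiblast FGF ligand, was at 132, 110 and 123 at T24 and at 1352, 1296 and 1359 at T48, a log2 fold change of 3.48 ± 0.08. Pou3f1 (Oct6) rose from 790, 550 and 723 to 6343, 5723 and 6096, and Lef1, a nuclear effector of WNT signalling, from 202, 168 and 193 to 1545, 1433 and 1430. All 3 genes separated the time points completely. Otx2 rose by 0.71, Grhl2 by 1.30, Sall2 by 2.09 and Sox11 by 1.85. Foxd3 and Utf1 did not pass the test, at 0.08 ± 0.04 and 0.03 ± 0.06. In WT the same 24 h gave 8 rises and 9 falls in this list, at a background of 32.8% higher and 32.9% lower for WT T48 against T24. For 7 members iEZR_CA and WT moved in opposite directions with both changes past the test, beside 7.37% of all genes, among them Otx2 (-1.18 in WT), Grhl2 (-0.94) and Fgf15 (2.21 in iEZR_CA and -1.22 in WT). The change was higher in iEZR_CA for 16 members and lower for Sox3, at a background of 25.3% higher and 20.9% lower. At 14 of 17 members the change was lower in the second 24 h than in the first, and at Sall2 it was higher. Among all genes 24.9% were lower and 21.9% higher in this contrast. The median of the list in the first 24 h was 2.76.

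**Figure D1:**
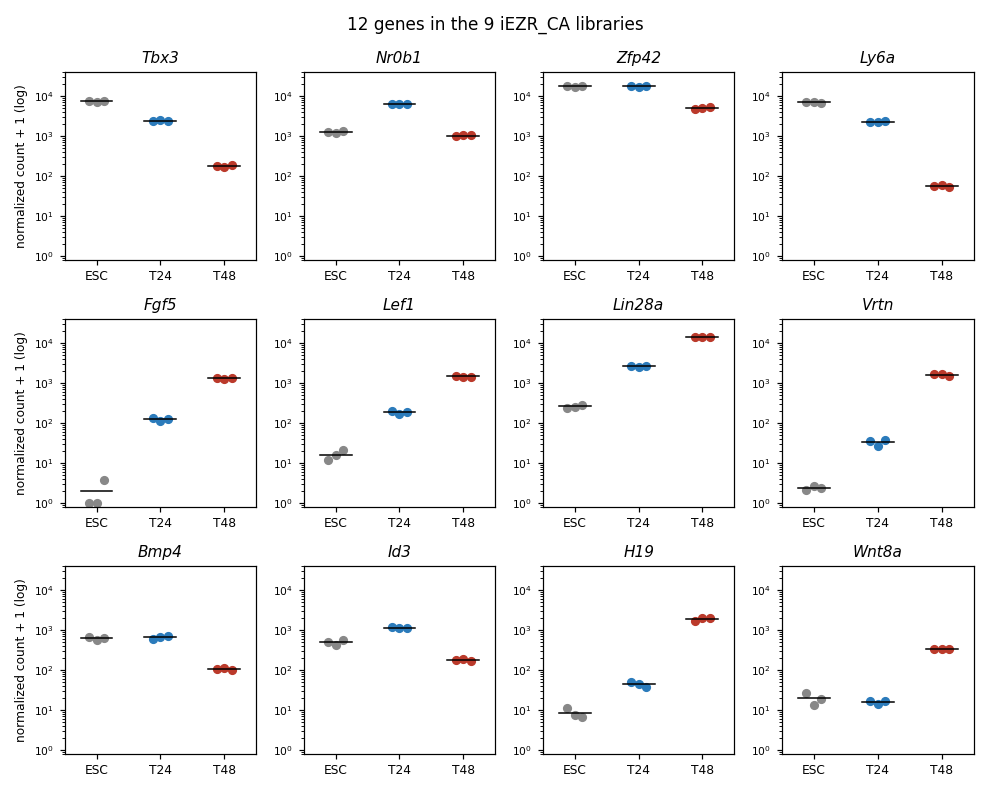
Normalized count plus 1 (log axis) of 12 genes in the 3 ESC, 3 T24 and 3 T48 iEZR_CA libraries; points are libraries and bars are group means. Tbx3 and Ly6a fall at each step, Nr0b1 and Id3 peak at T24, Zfp42 and Bmp4 drop at T48, and Wnt8a is high at T48.

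Lin28a, which blocks maturation of let-7 microRNAs, rose from 2647, 2477 and 2697 to 14223, 14359 and 13944, and its paralog Lin28b from 112, 117 and 95.7 to 611, 600 and 603. The 2 log2 fold changes were 2.45 and 2.48. Of the 9 genes of the LIN28 and oncofetal list, 8 rose, with a median of 0.35, and Hmga2 fell by 0.82. Mycn rose by 0.61 while its change in WT was -0.07. Sox2 fell from 9882, 9068 and 9546 to 4167, 4111 and 4439, whereas Pou5f1 and Sall4 fell by 0.29 and 0.28 only.

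Of 10 feedback inhibitors of ERK signalling 4 rose and 2 fell, with a median of 0.07. With spike-in scaling 3 rose and none fell. Without the plate column 9 libraries, which are replicate 3 of T24 and of T48 in iEZR_CA, 2 rose and 1 fell. Dusp4, a nuclear MAP kinase phosphatase, rose from 786, 824 and 849 to 3205, 3288 and 3206, and Spred3 from 87.7, 99.5 and 91.9 to 404, 348 and 378. Dusp6 did not pass the test, with 1576, 1557 and 1631 at T24 and 1497, 1627 and 1585 at T48, while it rose by 0.53 in WT. Of 14 genes induced by ERK, 8 fell and 2 rose, with a median of -0.42. The immediate early factor Egr1 rose from 17.5, 32.7 and 22.5 to 205, 184 and 161. Epha2 fell by 1.37, Etv4 by 0.76 and Etv5 by 0.16. In WT 10 of the 14 fell and 2 rose over the same 24 h, with a median of -0.83. The change was higher in iEZR_CA than in WT for 8 members and lower for 2, beside 25.3% and 20.9% of all genes. Of the FGF ligands and receptors, 7 rose and 3 fell of 13, with a median of 0.73, which was 0.47 without T24 replicate 2. With spike-in scaling 8 rose and none fell. The receptor Fgfr2 rose by 1.55, and Fgf4, the ligand of the naive state, fell by 0.29. In the LIF and STAT3 list 6 of 11 fell and 2 rose, with Bcl3 falling by 2.06 and the receptor Lifr by 0.93.

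Genes of BMP ligands, ID proteins and the inhibitory SMAD6 fell in the second day. In the first, Id1 and Id3 had risen, Bmp7 and Id4 had fallen, and Bmp4, Id2 and Smad6 did not pass the test. Of 14 members of the BMP and ID list, 9 fell, 8 of them at least 2-fold, and 2 rose, with a median of -1.03. ID proteins are inhibitors of basic helix-loop-helix factors and are direct targets of BMP signalling. Bmp4, the ligand, was at 614, 659 and 695 at T24 and at 107, 113 and 102 at T48, and its ESC mean was 626 ± 43.2 (SD, n = 3). Id3 was at 1171, 1156 and 1141 at T24 and at 177, 185 and 169 at T48. Id1 went from 82.3, 84.3 and 81.6 to 20.1, 18.5 and 14.4. Without exception, the T48 libraries of these 3 genes lay below the T24 libraries.

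Id2 went from 473, 488 and 489 to 144, 145 and 164, a log2 fold change of -1.69 ± 0.08, while in WT its mean rose from 106 to 323. The difference between the lines was -3.32 ± 0.13 on the log2 scale. Id4 fell by 1.88, and the inhibitory SMAD gene Smad6, itself a BMP target, fell by 2.19. The receptor genes Bmpr1a and Bmpr2 had changes of 0.08 ± 0.03 and 0.01 ± 0.08, of which the first passed the test but did not with DESeq2. Msx1, a homeobox target of BMP, rose from 4.05, 6.08 and 1.88 to 26.8, 27.7 and 37.2. The change was lower in iEZR_CA than in WT for 8 members of the list and higher for 2, Id3 and Msx1, beside 20.9% and 25.3% of all genes. At T24 the mean of Bmp4 was 656 in iEZR_CA and 80.5 in WT, so the steeper fall began from a higher level.

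**Figure D2:**
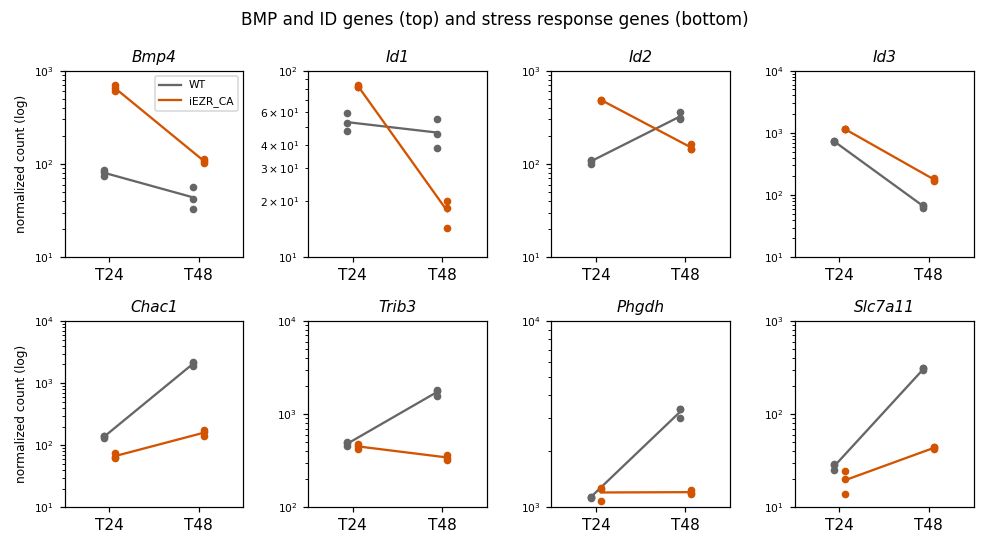
Normalized count (log axes that differ between panels) at T24 and T48 of 4 BMP and ID genes (top) and 4 stress response genes (bottom) in WT (grey) and iEZR_CA (orange); points are libraries and lines join group means. Id2 falls in iEZR_CA and rises in WT, and Phgdh stays level in iEZR_CA while it rises in WT.

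In the Nodal list 7 of 14 tested members rose and 5 fell, with a median of 0.09. Lefty1, a secreted Nodal antagonist, rose from 719, 477 and 608 to 1104, 1087 and 1080. In WT it fell by 1.06. Skil, a repressor of SMAD signalling, rose by 1.29, and Nodal itself fell by 0.46. Smad7, an inhibitory SMAD gene, fell by 2.54. The changes of 11 members were higher in iEZR_CA than in WT and that of Acvr1b was lower, beside 25.3% and 20.9% of all genes.

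WNT pathway genes were evenly split, with 6 of 18 higher, 6 lower and a median of 0.02. The ligand gene Wnt8a rose from 16.2, 12.9 and 15.9 to 344, 327 and 339, a log2 fold change of 4.50 ± 0.18 beside 4.42 in WT, with a difference of 0.08 ± 0.30. The feedback inhibitors Nkd1 and Nkd2 rose by 1.39 and 1.14. Notum, a secreted WNT deacylase, fell from 796, 731 and 837 to 150, 132 and 171. In WT Notum fell by 6.28, so the change in iEZR_CA was higher by 3.88 ± 0.20. Tcf7l1, a repressor of naive genes, fell by 1.11, and the secreted antagonist Sfrp1 by 1.63, whereas the WT change of Sfrp1 was -0.08.

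**Figure D3:**
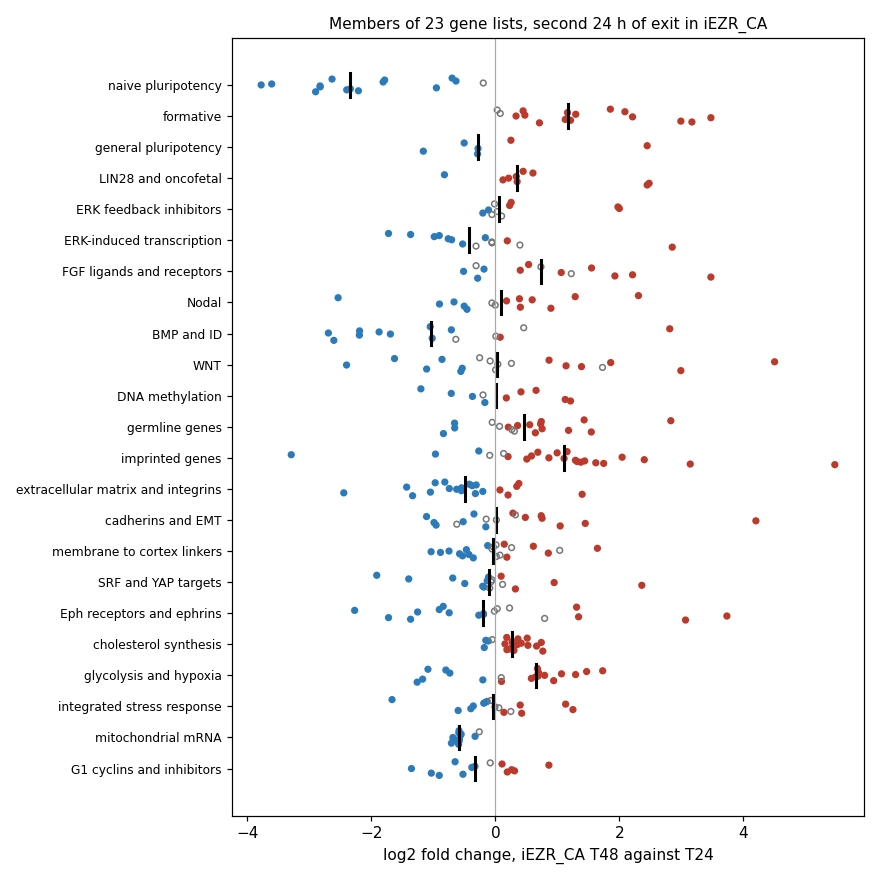
Log2 fold change of each tested member of 23 gene lists, iEZR_CA T48 against T24. Red and blue points passed the test as higher or lower, open points did not, and black bars are list medians, which run from -2.34 for the naive genes to 1.16 for the formative genes.

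The de novo DNA methyltransferase genes rose further. Dnmt3a went from 5843, 5847 and 5523 to 13384, 13323 and 13101, and Dnmt3b from 12600, 12273 and 11862 to 27703, 26226 and 26118. Dnmt3l, their cofactor, rose by 0.18 in iEZR_CA and fell by 1.83 in WT. The demethylation gene Tet2 fell by 0.71, and Zfp57, which guards methylation at imprinted loci, fell by 1.20. Of the 10 genes in the list 5 rose and 4 fell, with a median of 0.00. Germline genes, which methylated promoters keep silent in somatic cells, rose at 11 and fell at 3 of 18 members, with a median of 0.46. Tdrd1 went from 4.05, 7.60 and 9.38 to 49.3, 63.1 and 43.2, and Mael rose by 1.55. For 12 of the 18 the change was lower in iEZR_CA than in WT and for 6 it was higher, beside 20.9% and 25.3% of all genes.

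Imprinted genes, which are expressed from a single parental allele, were mostly higher at T48. Of 23 members 18 rose, 12 of them at least 2-fold, and 3 fell, with a median of 1.11. In WT 18 rose and 2 fell over the same 24 h, with a median of 0.81. H19, a maternally expressed lncRNA on chr7:142575529-142578143 (GRCm38, minus strand), rose from 48.6, 44.1 and 36.6 to 1726, 1979 and 1993. Its log2 fold change was 5.47 ± 0.09, beside 2.80 in WT. Igf2, its neighbour at the same locus, was counted at 0, 0.760 and 0.938 at T24 and at 9.20, 6.92 and 2.40 at T48. Within the Dlk1-Meg3 cluster, Meg3 rose by 1.75, Rian by 1.62, Mirg by 1.38 and Rtl1 by 1.44. Peg10, a paternally expressed gene of retrotransposon origin, rose from 2537, 2855 and 2527 to 13702, 14213 and 14008. Those that fell were Plagl1, Grb10 and Slc38a4, and Ndn and Gnas did not pass the test. Plagl1, a zinc finger gene, fell from 2083, 2072 and 1962 to 204, 192 and 235, and Grb10, an adaptor of insulin receptor signalling, fell by 0.97 where it rose by 1.18 in WT. Reads were not assigned to alleles.

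Extracellular matrix and integrin genes mostly fell. Of 20 members 15 fell and 5 rose, with a median of -0.48. The basement membrane linker Nid1 (nidogen) fell from 4045, 4175 and 3815 to 703, 769 and 735, and Sparc, a matricellular protein gene, from 6397, 6433 and 6350 to 2271, 2450 and 2384. Laminin chains moved apart. Lama1 fell from 384, 416 and 392 to 152, 141 and 192, and Lamb1 rose from 650, 669 and 635 to 1762, 1738 and 1645. In WT Lama1 rose by 1.42. Integrin beta 1 (Itgb1) rose by 0.38.

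Adhesion and polarity genes gave 7 rises and 6 falls among 17, with a median of 0.02. Epcam, an epithelial adhesion molecule, rose from 1457, 1357 and 1446 to 3857, 3822 and 3911, and Zeb2, a repressor of epithelial genes, from 9.44, 6.08 and 8.44 to 148, 138 and 145. N-cadherin (Cdh2) rose by 1.04, and P-cadherin (Cdh3) and vimentin (Vim) fell by 0.96 and 0.99. E-cadherin (Cdh1) fell by 0.15.

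Among 21 genes of membrane to cortex linkage, which include the ERM proteins, class I myosins, their regulators and membrane partners, 5 rose and 9 fell, with a median of -0.03 that became 0.07 with spike-in scaling. Podxl, a sialomucin that binds ezrin through NHERF scaffolds, rose from 757, 740 and 646 to 2257, 2234 and 2181, a log2 fold change of 1.65. The difference from WT was -0.01 ± 0.07. The scaffold gene Slc9a3r1 (NHERF1) fell by 0.47 in iEZR_CA and rose by 0.21 in WT. Nf2 (merlin) fell by 0.53, Myo1e by 0.89 and Rdx (radixin) rose by 0.18. Moesin (Msn) had a change of 0.02 that did not pass the test. In the SRF and YAP list 8 of 16 fell and 4 rose, with a median of -0.10. The YAP target Ccn1 fell by 1.40 and Axl by 1.91. Endocytosis genes fell at 12 and rose at 2 of 18 members, with a median of -0.18 and no change of 2-fold, and with spike-in scaling 4 fell and none rose.

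Eph receptors and ephrins fell at 10 and rose at 4 of 18 members, with a median of -0.19. The rises were large: Epha1 went from 25.6, 27.3 and 21.6 to 226, 203 and 198, Ephb1 from 4.05, 1.52 and 0.938 to 31.8, 24.6 and 24.0, and Efnb2 rose by 1.31. Ephb1 rested on 6 reads at T24, and the ratio of summed reads was 14.1 with an exact 95% interval of 6.22 to 39.4. Epha4 fell by 1.72 and Efna3 by 2.27.

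Genes of glucose use moved in both directions. Of 19 glycolysis and hypoxia genes 12 rose and 6 fell, with a median of 0.65. Ldha (lactate dehydrogenase A) rose from 3882, 3794 and 4021 to 9893, 9523 and 9192, and the glucose transporter gene Slc2a1 from 4783, 4682 and 4768 to 10106, 9994 and 9636. The other glucose transporter, Slc2a3, fell by 0.73, hexokinase 1 (Hk1) by 1.26 and the phosphofructokinase Pfkp by 1.17, while Pfkl rose by 0.94. Vegfa, the angiogenic factor, fell from 197, 229 and 227 to 125, 135 and 116, and rose by 1.95 in WT. Cholesterol synthesis genes rose at 16 and fell at 3 of 20 members, with a median of 0.27 and no change of 2-fold, and with spike-in scaling 13 rose and none fell. Among these, Sc5d (sterol C5-desaturase) rose by 0.74 and Insig1, a regulator of sterol sensing, by 0.66.

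Genes of the integrated stress response, in which ATF4 drives amino acid synthesis and transport, moved in both directions. Of 16 members 5 rose and 7 fell, with a median of -0.04. With spike-in scaling 4 rose and 2 fell and the median became 0.06. In WT 15 of the 16 rose, with a median of 1.05. The change was lower in iEZR_CA than in WT for 15 of the 16 by the test of the difference, beside 20.9% of all genes, and the remaining member, Atf5, did not pass it. Phgdh, the entry enzyme of serine synthesis, was at 1080, 1251 and 1277 at T24 and at 1182, 1200 and 1240 at T48, and its WT mean rose from 1134 to 3256. Chac1, a glutathione-degrading ATF4 target, rose from 62.0, 74.5 and 63.8 to 175, 162 and 143, beside a rise from 137 to 2071 in WT. Trib3 fell from 426, 475 and 453 to 343, 362 and 325, and in WT it rose by 1.81. The groups did not overlap for Chac1 and Trib3, and for Phgdh they did. Atf4 rose by 0.42 and Asns (asparagine synthetase) fell by 0.60.

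Mitochondrially encoded mRNAs fell at 12 of 13 genes, with a median of -0.59. In WT 12 fell too over the same 24 h, beside 32.9% of all genes, with a median of -0.57. The change was higher in iEZR_CA than in WT for 1 member and lower for none, beside 25.3% and 20.9% of all genes. The share of mitochondrially encoded mRNAs in the gene counts of iEZR_CA was 0.679% to 0.768% at T24 and 0.464% to 0.550% at T48. The share of reads that did not align was 13.2% to 13.5% at T24 and 13.8% to 14.1% at T48, and its part in these falls was not tested. Of 13 G1 cyclins and inhibitors 7 fell and 5 rose, with a median of -0.33. The cyclin D genes Ccnd1 and Ccnd3 fell by 0.91 and 1.03, and their partner Cdk6 fell by 1.35. Of 12 p53 targets 9 fell and 1 rose, with a median of -0.24, and with spike-in scaling 3 fell and none rose.

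Markers of other cell types were checked by their summed levels. In the primitive endoderm list, 1 of 10 tested markers, Dab2, had a mean of at least 50 normalized counts at either time, and the summed level was 444 to 476 at T24 and 288 to 310 at T48. The defining markers Gata4 and Sox17 had T48 means of 12.4 and 7.27. The 2-cell-like list had no marker at 50, its summed level was 67.4 to 73.7 at T24 and 21.7 to 26.9 at T48, 5 of 6 tested members fell, and 4 of its 10 genes were not tested because of low counts. Primitive streak markers rose at 5 and fell at 3 of 9 tested genes. Their summed level went from 187 to 212 at T24 up to 305 to 323 at T48. Eomes, the 1 of these 9 with a mean of at least 50 at either time, made up 237 at T48, where T (Brachyury) had a mean of 6.05. Early neural markers fell at 7 and rose at 3 of 13 tested genes, and their summed level went from 9468 to 9765 at T24 down to 5115 to 5160 at T48. Of these 13, 6 had a mean of at least 50 at either time, and the changes ran from -3.02 to 1.31. Sox21 fell from 1526, 1433 and 1612 to 172, 186 and 209, and Tubb3 fell by 1.31. The part of these markers in the other changes was not tested. In the trophectoderm list 7 of 11 tested markers had a mean of at least 50 at either time. Of these 11, 6 rose and 4 fell, with the summed level going from 2145 to 2207 at T24 down to 1347 to 1383 at T48. Tead4, which naive cells also express, fell by 2.18, and Krt8 fell by 1.42 where it rose by 2.03 in WT. Gata2 rose from 10.8, 9.12 and 8.44 to 86.2, 96.9 and 114. Cdx2, a defining trophectoderm marker, had a T48 mean of 8.11.

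Set against the WT time course, the second 24 h in iEZR_CA shared changes with both WT steps. Across 18469 genes, Pearson's r of the log2 fold changes was 0.59 with WT T24 to T48 and 0.51 with WT ESC to T24. No library is shared between the lines, genes are not independent replicates, and these r are a description of the libraries. Reads of low alignment quality made up 0.889% to 1.02% of an iEZR_CA library, against 0.519% to 0.612% of a WT library, and their part in differences between the lines was not tested. Of the 1331 genes at least 2-fold higher, 62.9% were among the 2000 (10.8% of those tested) at least 2-fold higher in WT T24 to T48, of which they made up 41.9%. With WT ESC to T24, 48.9% were shared with its 1912 risers (10.4%), of which they made up 34.0%. Of the 1342 genes at least 2-fold lower, 52.3% were among the 1812 (9.81%) lower in WT T24 to T48 and 53.4% among the 1928 (10.4%) lower in WT ESC to T24. These were 38.7% and 37.1% of the WT lists. In the opposite direction, 48 genes rose at least 2-fold in iEZR_CA and fell at least 2-fold in WT between T24 and T48, and 62 did the reverse. All 110, out of 18469 tested genes, passed the test of the difference between the lines. They were picked by opposite changes of at least 2-fold, which make up this difference, so passing adds no support. Without the 2-fold limit, 7.37% of all genes moved in opposite directions with both changes past the test.

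**Figure D4:**
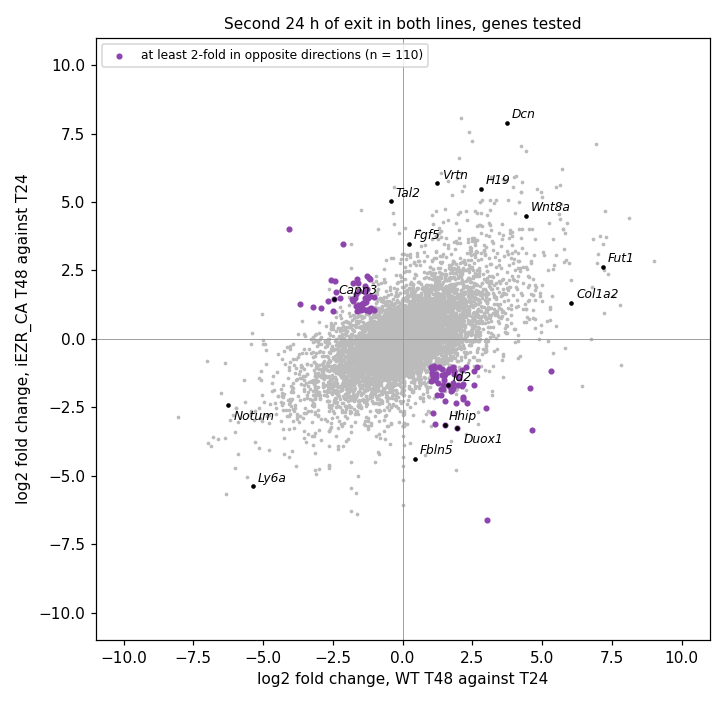
Log2 fold change between T24 and T48 in WT (horizontal) and iEZR_CA (vertical) of the 18469 tested genes. Purple points are the 110 genes that moved at least 2-fold in opposite directions, and Tal2, at 5.03 in iEZR_CA and -0.43 in WT, lies high near the vertical axis.

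The second and the first 24 h of exit differed within iEZR_CA, with a higher change in the second at 4049 genes (21.9%) and a lower one at 4600 (24.9%). Both steps share the T24 libraries, so an error in the T24 level moves the steps in opposite directions. Higher calls were 46.8% of the calls, and 29.9% with spike-in scaling. H19 rose by 2.49 in the first step and by 5.47 in the second, and Wnt8a had -0.30 and 4.50. Meg3 and Rian fell by 0.78 and 0.81 before T24 and rose after it. Lefty1 and Dusp4 rose by 5.54 and 5.99 first and by 0.90 and 1.98 later.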

How the data were processed

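RNA was measured by bulk RNA-seq in 18 libraries of 6 groups, 3 libraries each, and the groups were taken from the GEO labels. Per the submitters' processing notes, the authors trimmed reads with Trim Galore 0.6.5, aligned them to mm10 with GSNAP 2015-09-29 and counted them per gene with HTSeq on Ensembl 81. The deposited values are raw counts per gene. Of the 53801 genes in the table, 53706 matched GENCODE M21 for symbols and coordinates. Neither the 92 spike-ins nor the 5 lines that tally reads outside genes entered library sizes and tests.

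Genes with low counts were removed with edgeR's filter, which left 18469, and these were fitted with 6 group terms on all 18 libraries by edgeR 4.0.16 (R 4.3.3), with TMM scaling and the quasi-likelihood test. P-values were adjusted by Benjamini-Hochberg over all tested genes at a threshold of 0.05. The common biological coefficient of variation was 2.98% with 12 residual degrees of freedom. Fold changes are on the log2 scale. The standard error was computed from the test, as the absolute log2 fold change divided by the square root of the F statistic. Contrasts were iEZR_CA T48 against T24, its difference from the same step in WT, and its difference from ESC to T24. The procedure was run on simulated counts drawn with the spread estimated from these libraries, so that run cannot check the spread itself. Named genes were the 12 largest rises and 12 largest falls, 6 of each among genes with a mean of at least 5000, 6 in each direction for the difference from WT, Ezr and members of the lists, without clone and model names. Some list members enter the counts but are not reported here by name. The members and lists were chosen with earlier results of these data known. Alternatives were DESeq2 1.42.0, RLE and spike-in scaling, other filters, the 6 libraries alone, and libraries left out. Counting intervals cover counting error only.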

Additional observations from a re-analysis of the deposited data

Results flagged for a closer look

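By the test of the difference between the lines (edgeR's quasi-likelihood test with Benjamini-Hochberg adjustment), the T24 to T48 change was higher in iEZR_CA than in WT by 5.46 for Tal2, 4.45 for Vrtn, 4.16 for Dcn, 3.92 for Capn3 (a calpain protease) and 3.88 for Notum on the log2 scale. For Pramef17 the fitted difference was 5.18, but WT T48 was at 0 in all 3 libraries, so this value depends on the prior count and is no bound. For Dcn, with 4 reads at T24 in iEZR_CA, the difference was 7.68 without T24 replicate 2, so it depends on the prior count too. Capn3 went from 459, 444 and 495 to 1248, 1249 and 1366 in iEZR_CA, while its WT mean went from 2391 to 438.

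The change was lower in iEZR_CA than in WT by these log2 differences: -5.21 for Duox1, -4.83 for Abcc8, -4.82 for Fbln5, -4.74 for Col1a2, -4.64 for Hhip and -4.56 for Fut1. Hhip, a hedgehog-binding inhibitor, went from 171, 164 and 176 to 22.6, 18.5 and 15.6, while its WT mean rose from 41.8 to 117. Fut1 rested on 3 reads at T24 in iEZR_CA, and without T24 replicate 2 its difference was -1.41 and no longer passed the test. Opposite changes of at least 2-fold were found at 48 genes that rose in iEZR_CA and 62 that fell in it. Among integrated stress response genes, 15 had a lower change in iEZR_CA.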

How the results depend on the processing

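With spike-in scaling, 2813 genes were lower at T48, the difference from WT was higher at 1909 and lower at 1852, and the second against the first 24 h was higher at 1144 and lower at 2684. Ezr was then at -0.25 and no longer past the threshold. Among genes with a mean of at least 50, 495 rose and 760 fell at least 2-fold, and r was 0.659 with the late and 0.587 with the early WT step. Without the plate column 9 libraries r was 0.567 and 0.479.

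Leaving out 1 library at a time gave 4899 to 5222 higher and 5268 to 5364 lower genes, 1267 to 1384 and 1325 to 1384 of at least 2-fold, 4211 to 4646 and 3570 to 3874 for the difference from WT, and 3424 to 3953 and 4152 to 4585 for the second against the first 24 h. The r ranged from 0.568 to 0.578 and from 0.483 to 0.497, and Ezr from -0.38 to -0.34.

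Of 178 gene values, 154 kept direction and side of the threshold under every alternative run. Those that changed sign were near 0 and not past the test. With spike-in scaling, Dusp6 was at 0.10, Ndn at 0.026 and Phgdh at 0.11. Phgdh was at 0.0070 among genes with a mean of at least 50. Without the plate column 9 libraries Phgdh was at 0.016 and Bmpr2 at -0.021. The difference from WT of Podxl was 0.011 with no filter. With single libraries left out the ranges were -0.065 to 0.045 for Bmpr2, -0.051 to 0.013 for Dusp6, -0.18 to 0.39 for Gnas, -0.0046 to 0.031 for Msn and -0.067 to 0.032 for Phgdh, and for the difference from WT -0.072 to 0.22 for Wnt8a and -0.075 to 0.051 for Podxl. Atf5, Bmpr1a, Cdh1, Dnmt3l, Etv5, Fgf4, Pou5f1, Rdx, Sall4, Slc38a4 and Trib3 were not past the threshold with spike-in scaling. With spike-in scaling the members lower were 2 in the DNA methylation, 2 in the primitive endoderm, 4 in the SRF and YAP and 4 in the G1 list. The cause was not tested. No paired analysis was possible because the sample titles are plate wells without replicate numbers, and the numbers used here follow accession order and only name a library. Genes with few reads at T24, such as Dcn, are limited by depth.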
